A study of Mus musculus with 4 samples.

Results

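The respiratory chain genes were described in RNA-seq of lineage-negative cells, the bone marrow fraction left after mature blood cells are sorted away. The sample titles name the cells HSCs (hematopoietic stem cells). Genes were taken by type and name: protein-coding genes named as subunits or assembly factors of complexes I to V, from the nucleus or from mitochondrial DNA. This gave 93 of the 15607 genes of the table, 86 nuclear-encoded and 7 mitochondrially encoded. The nuclear genes comprised 45 of complex I, of which 8 (Ndufaf1 to Ndufaf8) encode assembly factors, 4 of complex II, 7 of complex III, 13 of complex IV and 17 of complex V. The mitochondrial genes were mt-Nd1, mt-Nd2, mt-Nd4, mt-Nd5 and mt-Nd6 of complex I, mt-Cytb of complex III and mt-Co1 of complex IV. Ndufs3, Uqcrc1 and the other mitochondrial mRNAs were not analysed here.

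The 4 libraries came from 4 mice, 2 labelled wild type (mice 1 and 3) and 2 labelled as a conditional Mel18 knockout in the hematopoietic system (mice 5 and 6). Mel18 is a Polycomb group protein encoded by Pcgf2, and the study asked whether it alters transcription in hematopoietic stem and progenitor cells. The labels give no strain, age, sex, Cre driver or deleted exon, and no treatment. Values per library below always follow the order wild type mouse 1, wild type mouse 3, knockout mouse 5, knockout mouse 6.

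The respiratory chain sits in the inner mitochondrial membrane. Complexes I and II pass electrons from NADH and succinate to ubiquinone, complex III passes them to cytochrome c and complex IV to oxygen. Complexes I, III and IV pump protons as they do so, and complex V, the ATP synthase, uses the gradient to make ATP. Complex II is built from nuclear genes alone, whereas the other complexes combine nuclear subunits with subunits made on mitochondrial ribosomes, so their assembly draws on both genomes. Hematopoietic stem cells are known for leaning on glycolysis, and their differentiating progeny for a higher use of respiration.

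Library totals ran from 35599564 to 46240864 counts. Pcgf2 itself had 210, 158, 303 and 321 counts, higher in both libraries labelled knockout (log2 fold change 0.44 ± 0.20 SE, adjusted p = 0.575, edgeR quasi-likelihood test), which goes against that label. Counts per gene do not show whether they come from deleted exons, so the groups are named by their labels throughout, and every direction given below is that of the labelled groups. The sorted fraction was mixed, although the sample titles name HSCs. The 11 neutrophil markers summed to 20016, 28420, 14081 and 14277 CPM (counts relative to library size, TMM-scaled), lower in both libraries labelled knockout for 11 of 11. The 7 stroma and osteoblast markers summed to 17.2, 144, 612 and 581 CPM, with Lum at 0 in wild type mouse 1. The 10 stem and progenitor markers were all present, at 735, 542, 629 and 576 CPM in sum. The 7 megakaryocyte markers summed to 219, 187, 295 and 268 CPM. Of these, Ppbp and Pf4 passed, both higher in the labelled knockout (adjusted p = 0.0160 and 0.0477, same test). Of the stroma and stem markers 0 passed. The part of these differences in the values below was not tested. In such bulk samples fewer cells of a type and less RNA per cell cannot be told apart.

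Neither genome's respiratory genes passed the test between the labelled groups. Of the 86 nuclear genes 0 passed an adjusted p of 0.05, and of the 7 mitochondrial genes 0 did (edgeR quasi-likelihood test, Benjamini-Hochberg adjustment over all genes). Of all 15607 genes 21 passed, or 0.135%, of which 0.032% were higher and 0.103% lower in the labelled knockout. At an unadjusted p under 0.05 there were 3 nuclear genes and 0 mitochondrial genes, against 8.89% of all genes. DESeq2 and the edgeR likelihood ratio test, which both called more than 21 of all genes, also called 0 of either group. limma voom called 0 of all genes, so its 0 here says nothing about the members. None of the 93 genes had a false discovery rate under 0.05 in the authors' deposited table, where 1.13% of all genes did.

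The nuclear genes lay close to equality. Their median log2 fold change was 0.049, with a range from -0.54 to 0.21, beside -0.0053 over all genes and 0.00094 over protein-coding genes. Without wild type mouse 1 the nuclear median was 0.0063. The change was under 0.1 on the log2 scale in size for 62 of 86 (72.1%), against 46.4% of all genes with a mean of at least 2 CPM. For 79 of the 86 the 95% interval of the change lay within 1.5-fold in either direction, a share of 91.9% beside 77.8% of genes with a mean of at least 2 CPM and 58.3% of all genes. Both libraries labelled knockout stood above both wild type libraries for 26 nuclear genes (30.2%, against 21.4% of all genes) and below them for 9 (10.5%, against 20.9%). The other 51 overlapped.

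**Figure D1:**
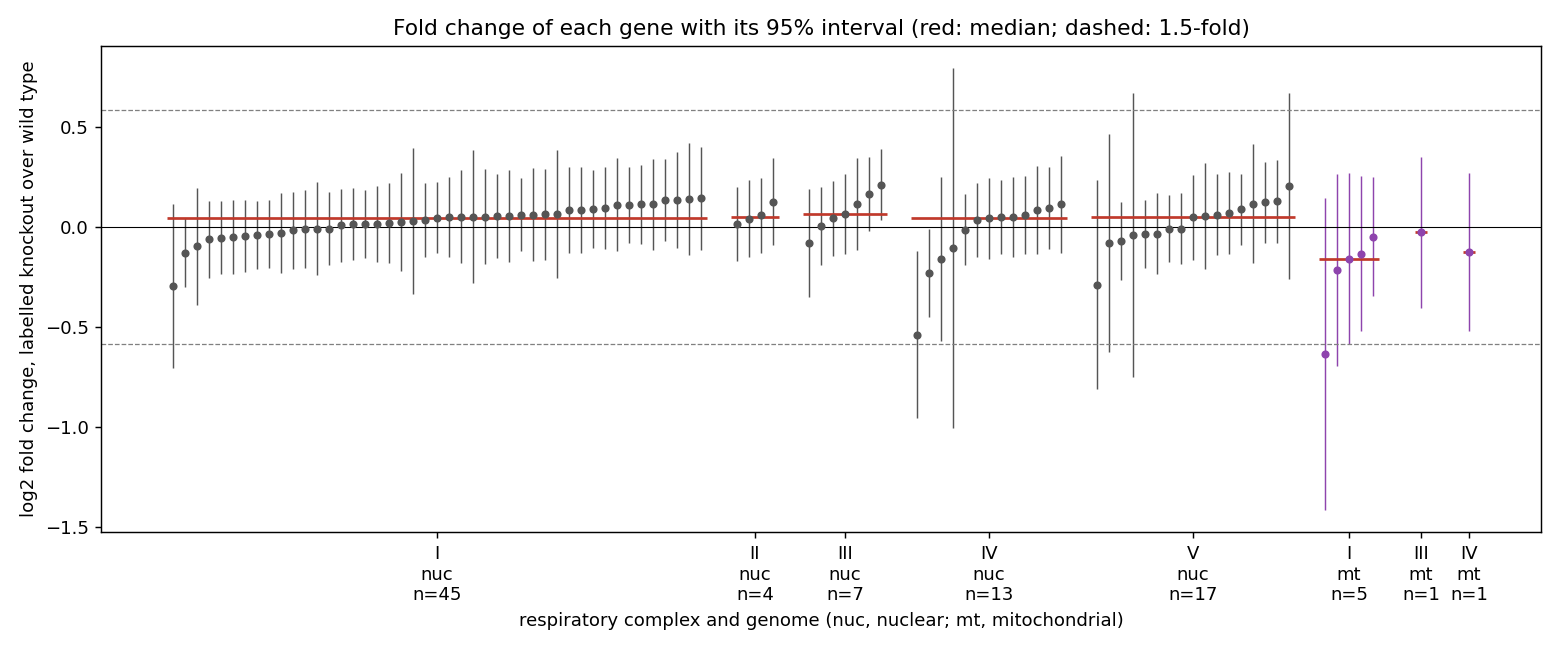
Log2 fold change of labelled knockout over wild type for each of the 93 genes (points) with its 95% interval (bars), by complex and genome, with the median in red and 1.5-fold dashed. The nuclear medians lie between 0.044 and 0.068 in the 5 complexes (-0.0031 to 0.054 without wild type mouse 1), and the 7 mitochondrial points all lie below 0 with intervals that cross it.

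Summed over the 86 genes, nuclear respiratory transcripts made up 0.958%, 0.948%, 0.992% and 0.997% of all counts. The wild type mean was 0.953% ± 0.00721 (SD, n = 2) and the mean of the labelled knockout 0.995% ± 0.00355 (SD, n = 2). As shares of counts the groups did not overlap, and their distance was larger than the spread within either. With TMM scaling the sums were 9327, 9739, 9930 and 9970 CPM, still without overlap. On that scale the order of the wild type mice turned, and they lay nearly as far apart as the group means. An exact two-sided permutation test of 2 against 2 libraries cannot reach 0.05, so none was run. The 7 mitochondrial mRNAs made up 0.763%, 0.528%, 0.599% and 0.590% of counts. Here the wild type mice held both the highest and the lowest value, and the group means, 0.646% ± 0.166 and 0.594% ± 0.00602 (SD, n = 2 each), differed by less than the wild type spread.

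The ratio of mitochondrial to nuclear respiratory counts does not depend on scaling between libraries. It was 0.797, 0.557, 0.603 and 0.592. Wild type mouse 1 stood apart from the other three libraries, and wild type mouse 3 was the lowest. On the log2 scale the labelled knockout was lower by a mean of 0.16 (a difference of -0.16), and without wild type mouse 1 the difference was 0.10 in the other direction.

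**Figure D2:**
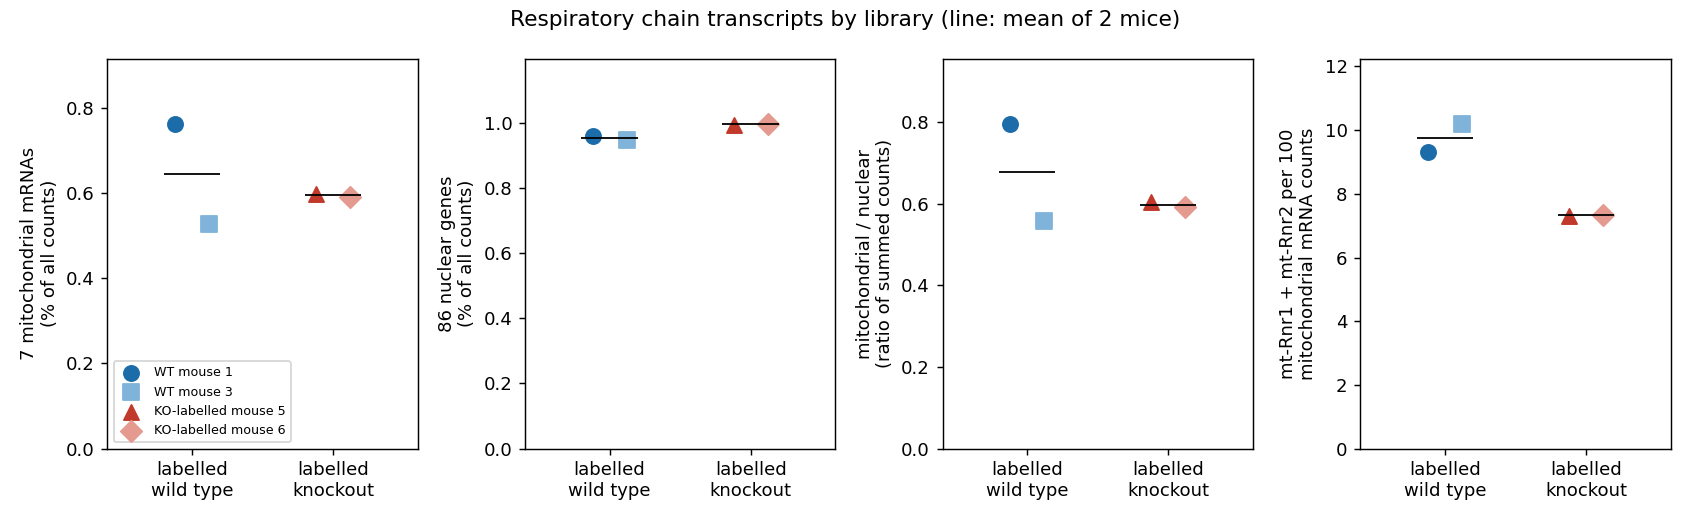
Share of counts from the 7 mitochondrial mRNAs, share from the 86 nuclear genes, ratio of mitochondrial to nuclear counts, and mt-Rnr1 and mt-Rnr2 counts per 100 mitochondrial mRNA counts in each library (points), with the mean of 2 mice as a line. The mitochondrial share and the ratio are highest in wild type mouse 1, and in both libraries labelled knockout the nuclear share is higher and the rRNA count per 100 mRNA counts lower.

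Complex I, the NADH dehydrogenase, was the largest group. Among its 45 nuclear genes the median change was 0.049 on the log2 scale (0.0072 without wild type mouse 1 and 0.019 without knockout mouse 6), 35 changed by under 0.1 in size, and they summed to 3199, 3325, 3350 and 3343 CPM. Among the catalytic core subunits, Ndufv1, which binds NADH, stood at 181, 196, 212 and 202 CPM (log2 fold change 0.13 ± 0.087 SE, adjusted p = 0.660, edgeR). Ndufs1, an iron-sulfur subunit, had 144, 149, 160 and 156 CPM. In both the labelled knockout lay above wild type by a small margin, whereas Ndufs7, Ndufs8 and Ndufv2 overlapped between groups.

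The nuclear complex I genes with the smallest p were accessory subunits, and both had lower values in the labelled knockout. Ndufs4, whose loss in mice gives a Leigh-like disease, had 61.34, 59.04, 55.30 and 54.97 CPM (log2 fold change -0.13 ± 0.073 SE, adjusted p = 0.628, edgeR). Ndufb4 had 267, 225, 258 and 243 counts, or 7.30, 6.21, 5.58 and 5.44 CPM (-0.29 ± 0.17 SE, adjusted p = 0.638). Neither passed. Per length, Ndufa1 (154 RPKM, CPM per kilobase of gene length, mean of 4 libraries) and Ndufa2 (139 RPKM) were the highest and Ndufab1, the acyl carrier protein, the lowest at 1.92 RPKM. The 8 assembly factors had a median of 0.077, with 7 positive (87.5%, against 48.8% of all genes).

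Complex II, the succinate dehydrogenase, had 4 genes, all with positive changes (against 48.8% of all genes), at a median of 0.051. Sdha, the flavoprotein that oxidizes succinate, had 416, 437, 467 and 466 CPM (log2 fold change 0.13 ± 0.093 SE, adjusted p = 0.684, edgeR). The libraries labelled knockout were both higher than wild type and nearly equal to each other. Sdhb, the iron-sulfur subunit, had 111, 121, 118 and 121 CPM and overlapped. The membrane anchors Sdhc (154, 154, 156 and 155 CPM) and Sdhd (178, 179, 185 and 188 CPM) differed by 0.016 and 0.060 on the log2 scale. Per length Sdhd was the highest of the complex at 148 RPKM and Sdhc the lowest at 47.6 RPKM.

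Complex III, the cytochrome bc1 complex, held the nuclear gene with the largest positive change of the 86. Uqcr10, a small subunit (chr11:4701973-4704342, mm10, minus strand), had 2880, 3007, 4324 and 4196 counts, or 78.7, 83.0, 93.6 and 94.0 CPM. The groups did not overlap, with means of 80.9 ± 3.0 and 93.8 ± 0.27 CPM (SD, n = 2 each). The log2 fold change was 0.21 ± 0.075 SE, which did not pass (adjusted p = 0.475, edgeR), although it was one of the 3 genes past the unadjusted threshold. Uqcr11, another small subunit, had 50.2, 53.5, 56.7 and 59.7 CPM (0.17, adjusted p = 0.587). The core subunit Uqcrc2 had 232, 219, 238 and 234 CPM, and Uqcrfs1, the Rieske iron-sulfur protein, 145, 147, 153 and 147 CPM. Uqcrb, the lowest of the complex at 30.9 RPKM, had 30.29, 25.38, 26.97 and 25.71 CPM and overlapped.

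Complex IV, cytochrome c oxidase, held the other 2 genes past the unadjusted threshold, both with lower values in the labelled knockout. Its 13 nuclear genes had a median of 0.044, which was -0.0031 without wild type mouse 1. Both libraries labelled knockout were above both wild type libraries for 2 (15.4%) and below for 3 (23.1%), near the shares of 21.4% and 20.9% over all genes. Cox7a2l, which helps join complexes III and IV into supercomplexes, had 72.8, 66.0, 62.9 and 55.6 CPM (log2 fold change -0.23 ± 0.093 SE, adjusted p = 0.538, edgeR). Cox7c, a small accessory subunit (chr13:86044816-86046904, mm10, minus strand), had 323, 281, 241 and 278 counts, or 8.83, 7.76, 5.22 and 6.23 CPM. Its change, -0.54 ± 0.18 SE, was the largest of the 86 in size and did not pass (adjusted p = 0.447, edgeR).

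The level of Cox7c was low for a subunit of an abundant complex, at 6.20 RPKM, and its sequence is not unique. Its 192-base coding sequence is identical to the annotated pseudogene Gm12338 and differs at 2 bases from Gm10012 on chromosome 17. The sequences of Cox7c and Gm10012 are shown because a read without either base fits both genes. They come from GENCODE M21 transcripts, 5′ to 3′, with the differing bases in capitals.
Cox7c: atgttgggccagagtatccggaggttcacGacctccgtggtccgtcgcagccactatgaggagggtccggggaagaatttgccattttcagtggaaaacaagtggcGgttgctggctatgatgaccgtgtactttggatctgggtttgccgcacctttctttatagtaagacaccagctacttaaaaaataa
Gm10012: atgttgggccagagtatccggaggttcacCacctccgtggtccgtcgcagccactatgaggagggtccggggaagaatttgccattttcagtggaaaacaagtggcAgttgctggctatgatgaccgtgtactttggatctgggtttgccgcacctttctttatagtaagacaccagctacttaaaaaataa
How the authors' counting treated reads that fit several genes is not given in the sources used here, so the value of Cox7c is uncertain.

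Paralogous complex IV subunits with tissue-specific forms appeared mainly in the forms known as ubiquitous. Cox6a1 (liver-type in name) stood at 311 RPKM and its heart and muscle paralogue Cox6a2 at 7.36 RPKM. Cox7a2 stood at 114 RPKM and the muscle form Cox7a1 at 0.918 RPKM, with 15, 22, 22 and 21 counts. Cox6b1 stood at 269 RPKM and the testis form Cox6b2 at 32.8 RPKM. None of these passed the test. Of the 6, Cox6a2 was lower and Cox6b2 higher in both libraries labelled knockout, and the others overlapped. Over all genes 20.9% were lower and 21.4% higher in this way. Cox8a, at 154, 176, 175 and 175 CPM, Cox5a, at 153, 162, 162 and 166 CPM, and Ndufa4, now assigned to complex IV, at 154, 144, 151 and 146 CPM, varied as much within wild type as between groups.

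Complex V, the ATP synthase, held the most abundant nuclear gene. Atp5b, the catalytic beta subunit, had 1520, 1599, 1686 and 1698 CPM and 384 RPKM (log2 fold change 0.12 ± 0.13 SE, adjusted p = 0.780, edgeR). Atp5a1, the alpha subunit, had 271, 282, 304 and 299 CPM (0.12 ± 0.086 SE, adjusted p = 0.672). Atp5d, the delta subunit, had 193, 212, 224 and 219 CPM (0.13 ± 0.089 SE, adjusted p = 0.672). In these 3 both libraries labelled knockout lay above wild type, while the gamma subunit Atp5c1 (206, 191, 190 and 199 CPM) and the epsilon subunit Atp5e (145, 161, 161 and 161 CPM) overlapped. The 3 genes for subunit c, whose mature proteins are the same, differed widely in measured level. Atp5g3 stood at 130 RPKM, Atp5g1 at 0.838 RPKM and Atp5g2 at 0.486 RPKM. In the comparison with annotated pseudogenes described below, Atp5g2 shared 100% of its stretches, Atp5g1 66.0% and Atp5g3 0%. The deposited length also exceeded the main transcript, at 4912 against 596 bases for Atp5g1 and 2181 against 714 for Atp5g3. The part of shared sequence and length in these levels was not tested.

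The 17 core subunits of complexes I, II, III and V, most of which carry redox centres or catalysis, varied little. The median change was 0.071, with 15 positive (88.2%, against 48.8% of all genes). Both libraries labelled knockout were above both wild type libraries for 11 (64.7%, against 21.4% of all genes) and below for 0 (against 20.9%). All 17 intervals lay within 1.5-fold. Their sum was 4444, 4610, 4830 and 4818 CPM. The 61 accessory subunits had a median of 0.027, with 11 above (18.03%) and 8 below (13.1%), the first of these near the share over all genes. Since members share libraries and scaling, these counts are descriptions and not tests.

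**Figure D3:**
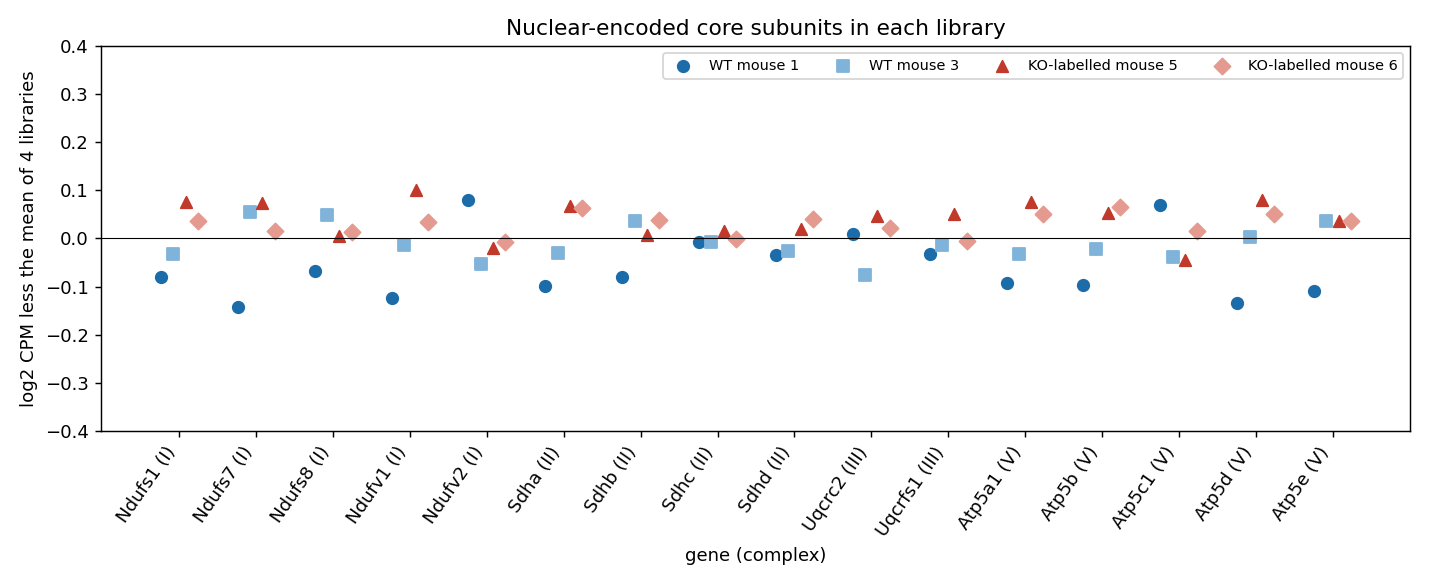
Log2 CPM of 16 nuclear core subunits in each library, less the mean of the 4 libraries (points), with the complex in brackets. For 10 of the 16 genes both libraries labelled knockout lie above both wild type libraries.

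Of the 7 mitochondrially encoded mRNAs, all but mt-Nd6 differed more between the wild type mice than between the labelled groups. Wild type mouse 1 was above wild type mouse 3 in 7 of 7, with a median difference of 0.41 on the log2 scale, against 28 of 86 nuclear genes. The median size of the difference within a group was 0.41 in wild type and 0.057 in the labelled knockout for the mitochondrial genes, and 0.095 and 0.040 for the nuclear genes. Over all genes it was 0.18 and 0.11. Wild type mouse 1 was also above wild type mouse 3 in 10 of 10 stem and progenitor markers and 6 of 6 T and NK markers. It was above in 0 of 11 neutrophil markers and 1 of 11 erythroid markers, and in 7147 of all 15607 genes. The part of these differences in the result was not tested.

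mt-Nd1 (chrM:2751-3707), a membrane subunit of complex I near the quinone site, had 1381, 897, 963 and 1002 CPM (log2 fold change -0.21 ± 0.20 SE, adjusted p = 0.750, edgeR). mt-Nd2, a proton-pumping subunit, had 632, 431, 468 and 486 CPM (-0.16 ± 0.18 SE, adjusted p = 0.789). In both, wild type mouse 1 was the highest library and wild type mouse 3 the lowest. Without wild type mouse 3 both changes were negative and larger in size, and without wild type mouse 1 the direction turned, to 0.13 and 0.15. Either fit leaves a single wild type library, so only the direction and size are given.

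The other mRNAs read from the same strand also had wild type mouse 1 highest and wild type mouse 3 lowest. mt-Nd4 had 527, 422, 472 and 446 CPM, mt-Nd5 990, 717, 791 and 768 CPM, and mt-Co1, the catalytic subunit of complex IV, 2173, 1639, 1769 and 1731 CPM. mt-Cytb, the cytochrome b of complex III, had 1721, 1318, 1526 and 1462 CPM (-0.024 ± 0.16 SE, adjusted p = 0.972, edgeR). Per length mt-Cytb was the most abundant at 1317 RPKM, followed by mt-Co1 at 1183 RPKM and mt-Nd1 at 1108 RPKM, with SDs over the 4 libraries of 146, 153 and 228, so neighbours in this order do not differ beyond their spread. All 3 lay above the highest nuclear gene, Atp5b.

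mt-Nd6 (chrM:13552-14070), which stands on the other strand from the rest, was far lower at 9.01 RPKM, with 229, 185, 114 and 217 counts. Both libraries labelled knockout had lower CPM, at 6.26, 5.11, 2.47 and 4.86, and the change, -0.63 ± 0.33 SE, did not pass (adjusted p = 0.605, edgeR). The annotation overlaps it with the end of mt-Nd5, and the kit does not mark strand, so reads there cannot be assigned to either gene.

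**Figure D4:**
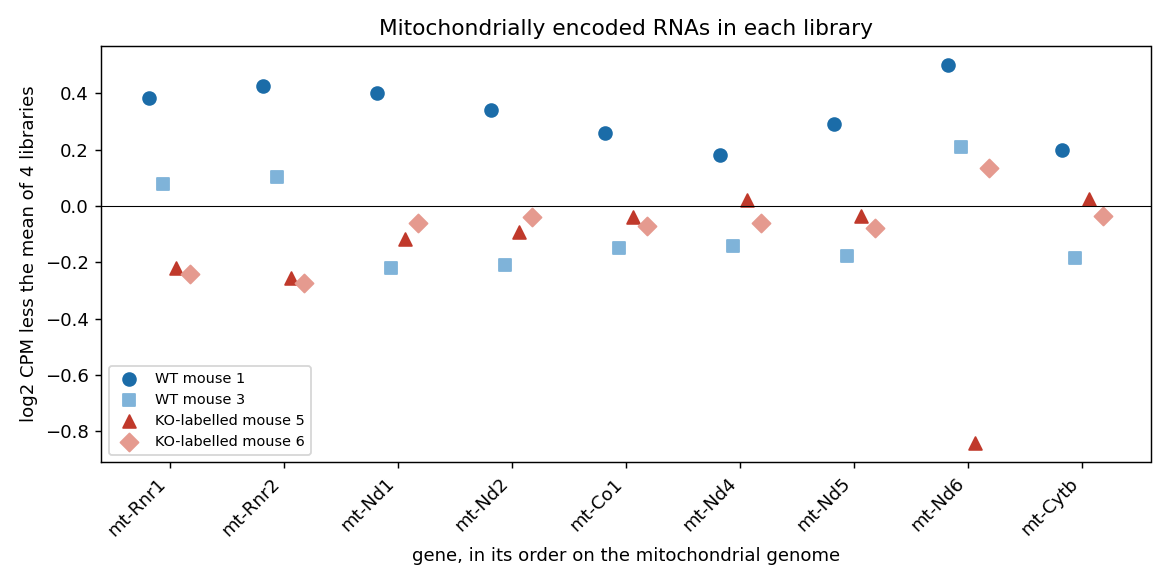
Log2 CPM of each mitochondrially encoded RNA in each library, less the mean of the 4 libraries (points), in genome order. Wild type mouse 1 is the highest library for every mRNA, and the rRNAs mt-Rnr1 and mt-Rnr2 are lower in both libraries labelled knockout.

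The mitochondrial rRNAs, which build the mitochondrial ribosome and are outside the protein-coding rule, were looked at after their values were seen. mt-Rnr2, the large rRNA, had 480, 383, 299 and 295 CPM (log2 fold change -0.54 ± 0.12 SE, adjusted p = 0.257, edgeR quasi-likelihood). mt-Rnr1, the small rRNA, had 212, 171, 140 and 137 CPM (-0.47 ± 0.11 SE, adjusted p = 0.284). Both libraries labelled knockout lay below both wild type libraries for each, as they did for 20.9% of all genes. For mt-Rnr2 the adjusted p was 0.00582 with DESeq2 and 0.0174 with the edgeR likelihood ratio test, the false discovery rate in the authors' deposited table was 0.0173, and over all alternatives the adjusted p ran from 0.00304 to 1.00. For mt-Rnr1 it was 0.0278 with DESeq2 and 0.0502 with the likelihood ratio test, the authors' deposited table gave 0.0504, and the range over alternatives was 0.00469 to 1.00. Set against the mRNAs of the same genome, there were 9.30, 10.2, 7.32 and 7.33 rRNA counts per 100 mRNA counts, so the groups did not overlap here although the mRNAs alone did.

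Low levels among the nuclear genes went with shared sequence. A 50-base stretch was counted as shared when it also occurs in an annotated pseudogene. Of the 16 nuclear genes under 10 RPKM, 8 shared at least 25% of their stretches, and of the 69 at 10 RPKM or more that could be examined, 3 did. The 11 sharing genes had a median of 3.20 RPKM, against 63.4 RPKM for the 50 that shared none. Atp5g2 shared 100% of its stretches, Atp5l 68.5%, Atp5h 66.6%, Atp5g1 66.0%, Ndufb4 37.0%, Ndufab1 30.8% and Cox7c 29.1%. Among the mitochondrial genes mt-Nd4 shared 62.2% and mt-Co1 51.1%. Levels of these genes are uncertain for that reason, and so is any level per length where the deposited length exceeds that of the main transcript (6883 against 1416 bases for Ndufab1).

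**Figure D5:**
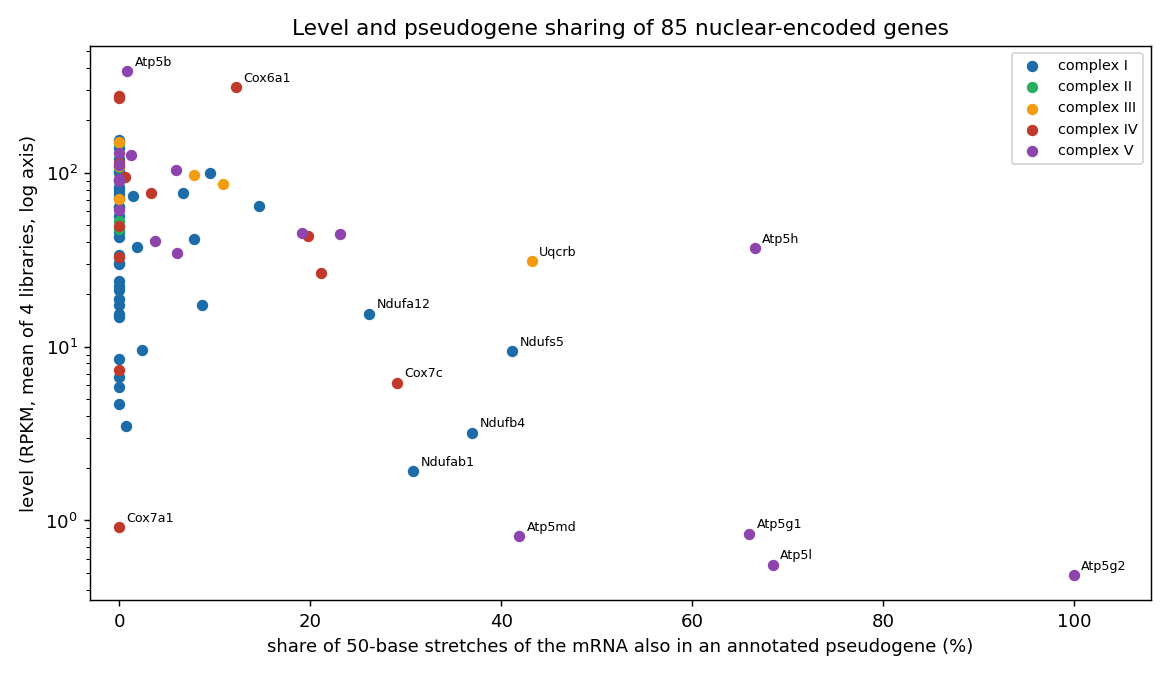
Level (RPKM, mean of 4 libraries, log axis) of 85 nuclear genes against the share of 50-base stretches of the mRNA also found in an annotated pseudogene, by complex. Of the 11 genes at 25% or more, 8 lie under 10 RPKM.

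Promoters of nuclear respiratory genes are known to carry sites for NRF1, ETS-family factors such as GABP, and YY1. RefSeq promoters (GRCm38.p6, 250 bases before to 50 after the start) were found for 72 of the 86 genes. The NRF1 motif, a palindrome-like element read on both strands, was in 18 of them (25%), against 10.7% of the 10950 other genes of the table and 4.60% of all 32851 promoters. The ETS motif CCGGAAG was in 18 (25%), against 19.0% and 8.86%, and the YY1 motif in 6 (8.33%), against 2.19% and 0.852%. The 250 bases upstream of Ndufb4 and Sdha are shown because they are the NRF1-bearing genes with the smallest p, and their changes point in opposite directions. Each holds 3 matches, in capitals, 5′ to 3′ on the gene's strand.
Ndufb4, chr16:37654369-37654618, minus strand: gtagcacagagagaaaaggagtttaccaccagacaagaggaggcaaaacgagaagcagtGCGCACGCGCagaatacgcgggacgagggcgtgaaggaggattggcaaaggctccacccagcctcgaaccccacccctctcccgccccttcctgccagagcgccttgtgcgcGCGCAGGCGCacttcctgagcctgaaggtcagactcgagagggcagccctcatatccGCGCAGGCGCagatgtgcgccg
Sdha, chr13:74350241-74350490, minus strand: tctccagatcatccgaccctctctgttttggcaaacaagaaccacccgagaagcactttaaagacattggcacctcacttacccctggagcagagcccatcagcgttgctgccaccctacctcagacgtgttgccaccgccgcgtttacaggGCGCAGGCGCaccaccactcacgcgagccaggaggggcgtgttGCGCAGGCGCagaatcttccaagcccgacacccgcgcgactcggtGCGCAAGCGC
A match describes the letters only, and neither gene passed the test.

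Genes that build, supply or regulate the chain did not pass either, with 0 called in each of 9 lists. Since only 0.135% of all genes passed, 0 in lists this short says little about them. Of 17 measured genes for mitochondrial RNA processing, 14 were positive (82.4%, against 48.8% of all genes), with a median of 0.11. Among them Lrpprc, which stabilizes mitochondrial mRNAs, had 101, 116, 125 and 125 CPM (log2 fold change 0.21, adjusted p = 0.568, edgeR). Tbrg4 stood at 0.18 (adjusted p = 0.564). Of 18 genes for mitochondrial DNA maintenance and transcription the median was 0.037; Polrmt, the mitochondrial RNA polymerase, had 47.05, 56.74, 62.05 and 62.07 CPM (0.26, adjusted p = 0.519). Tfam, which packages mitochondrial DNA, was chosen after its value was seen and stood at 55.2, 55.1, 52.4 and 57.8 CPM.

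Of 11 nuclear regulators of mitochondrial genes the median was 0.0034. Pprc1, a PGC-1-related coactivator, had 87.3, 106, 121 and 117 CPM (log2 fold change 0.30, adjusted p = 0.469, edgeR) and the nuclear receptor Esrra 52.0, 55.5, 43.0 and 49.6 CPM (-0.22, adjusted p = 0.566). The 13 citric acid cycle genes had a median of 0.078, with 8 above (61.5%, against 21.4% of all genes) and 0 below (against 20.9%); Fh1, fumarase, had 128, 135, 148 and 149 CPM (0.18, adjusted p = 0.576). The 16 glycolysis genes had a median of 0.036, with Gapdh lower (-0.44, adjusted p = 0.395) and Pfkm at 0.24 (adjusted p = 0.600). Gapdh had only 585, 684, 592 and 578 counts and stood at 3.67 RPKM, beside 164 RPKM for Pkm. Sequence shared with pseudogenes was not examined for these lists, so the value of Gapdh is uncertain. The other lists had medians of 0.060 (subunits outside the name rule, 5 genes, among them Cox4i1 and Cyc1), 0.0072 (electron entry dehydrogenases, 7 genes), -0.013 (assembly factors of complexes II to V, 32 genes) and 0.035 (other complex I assembly, 8 genes).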

How the data were processed

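The kits named in the labels' protocols are SMART-Seq v4 low-input for cDNA and Nextera XT for libraries, a chemistry without strand information. The submitters' processing notes list FastQC, MultiQC 0.11.5, Trimmomatic 0.40, STAR 2.5, edgeR 3.28.1 and build mm10, and no read counter is given in the sources used here. The authors deposited whole-number counts per gene, log2 CPM and log2 RPKM values with a log2 fold change, and p-values with false discovery rates from their own comparison. Per-sample values in 2 more columns match no labelled sample and were left out.

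The 15607 genes were tested in R 4.3.3 with edgeR 4.0.16: TMM factors, robust quasi-likelihood F tests, and Benjamini-Hochberg adjustment over all genes at 0.05. filterByExpr removed 0 genes. SE values come from the F statistic, intervals are 95%, and 2 residual degrees of freedom remained with a common biological variation of 13.3%. CPM uses TMM-scaled library sizes. The p-values rest on the spread between single mice, 2 a group, moderated with information from the other genes. With that moderation the median total degrees of freedom was 7.16. The procedure was tested on simulated data. Alternatives used DESeq2 1.42.0, limma 3.58.1, other scalings and filters, and removal of each library. Genes named were all mitochondrial members, core subunits, paralogues, and per complex those with the smallest p and the highest and lowest RPKM; of each pathway list, up to 2 with the smallest p. Of the genes this rule allows, 2 are not reported here. The members and lists were chosen with earlier results of these data known. All 93 genes matched GENCODE M21 with equal coordinates. The mitochondrial rRNAs and their ratio were added after seeing the data.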

Additional observations from a re-analysis of the deposited data

How the results depend on the processing

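The number of genes called among all 15607 was 21, and it was 216 with the DESeq2 Wald test, 0 with limma voom (1363 at an unadjusted p under 0.05), 177 with the likelihood ratio test, 4 without robust estimation and 10 with a filter of 1 CPM in 2 libraries. Leaving out each library in turn gave 5 to 844 (removing wild type mouse 1 left 289, removing mouse 3 left 844 and removing mouse 5 left 5), and a lone library was assumed to vary like the other group. Nuclear members called stayed at 0 under all 13 settings, and mitochondrial members at 0 to 2, with 2 called without wild type mouse 3. Leaving out libraries moved the nuclear median from 0.0063 to 0.069, the mitochondrial median from -0.35 to 0.12, and the medians of complex I from 0.0072 to 0.059, complex III from 0.047 to 0.072 and complex V from 0.00044 to 0.071. All mitochondrial mRNAs but mt-Nd6 (-1.20 to -0.23) reversed without wild type mouse 1: the ranges were -0.50 to 0.13 for mt-Nd1, -0.42 to 0.15 for mt-Nd2, -0.21 to 0.12 for mt-Nd4, -0.35 to 0.12 for mt-Nd5, -0.21 to 0.18 for mt-Cytb (0.0069 without knockout mouse 6) and -0.32 to 0.094 for mt-Co1. The cause was not tested. Of 290 values for single genes, 276 kept direction and side of the threshold. No paired analysis was possible because the labelled groups share no mouse number.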

Other observations

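Of the mitochondrial tRNAs, mt-Tt, mt-Tl1 and mt-Tw were in the table at 12 to 44 counts per library. mt-Tw had 44, 27, 32 and 34 counts, mt-Tl1 41, 21, 22 and 25, and mt-Tt 42, 14, 23 and 12, so wild type mouse 1 was the highest library for each, as it was for every mitochondrial mRNA. None passed the quasi-likelihood test of edgeR.

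Some annotated pseudogenes that share stretches with these genes had counts of their own. Gm10039 had 39, 32, 44 and 58 counts, and Gm5436 had 53, 45, 48 and 52.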
